A study of Mus musculus with 6 samples.

Results

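The genes described here encode the Hsp70 chaperones Hspa1a, Hspa1b and Hspa8, their Hsp110 relatives Hsph1, Hspa4 and Hspa4l, the J-domain cochaperones Dnajb1 and Dnaja1, the cochaperone Bag3 and the small heat shock protein Hspb1. They were chosen by name, with earlier results of these data known, and every probe set that the array annotation gives to 1 of them alone was kept. A probe set is a group of short oligonucleotides on the array that together read 1 mRNA. All 27 of their probe sets passed the filter on dim signals, so that 10 of the 12262 genes tested, and 27 of the 27022 probe sets tested, are members. Spleen RNA came from 3 garlic-fed mice and 3 control mice, all male C57BL/6J mice that were 8 weeks old at the start. The garlic-fed mice ate a diet with 4% lyophilized raw garlic powder for 15 weeks, and the control mice ate the same base diet with 4% cellulose for 15 weeks. Each mouse had 1 Affymetrix array, and the signal is the brightness of the labeled RNA bound to a probe set, on a linear scale. The study set these profiles side by side to look for changes in splenic mRNA that go with dietary garlic. With 3 mice in each group no exact permutation test can give a p under 0.1, so the differences were tested with limma across all probe sets.

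Hsp70 proteins hold unfolded stretches of other proteins and release them in a cycle driven by ATP. J-domain proteins bring them clients and speed the breakdown of ATP, whereas Hsp110 proteins and Bag3 exchange the bound nucleotide and so set the client free. Small heat shock proteins such as Hspb1 bind unfolded proteins without ATP and pass them on. Hspa8 is made in nearly all cells at all times, whereas Hspa1a and Hspa1b are made mainly under stress, when heat shock factor 1 binds repeats of the letters GAA in inverted order before their start sites. In the spleen and bone marrow, Hsp70 is known for protecting the transcription factor GATA-1 in maturing red blood cells. Hspa1a, Hspa1b, Hsph1, Dnajb1, Dnaja1, Bag3 and Hspb1 are called inducible here, and Hspa8, Hspa4 and Hspa4l constitutive. The split is a convention of this report and was not made from these values. Whether stress induces Hspa4l was not examined, so its place is the least certain.

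The DNA before the start sites of the inducible genes is shown because it holds the letters that heat shock factors read. The 250 bases before each start site in the RefSeq mouse genes, build GRCm38.p6, were searched for a pair of facing GAA units, GAANNTTC or TTCNNGAA. Both read the same on either strand. One or the other was found in 12.8% of all 32851 such windows, 6.69% for GAANNTTC and 7.17% for TTCNNGAA, and before 1 or more starts of 14.5% of the 27025 genes in the table. Of the 9 members in that table, 5 held a pair, Hspa1a, Hspa1b, Hsph1, Hspb1 and Dnaja1, all of them among the 7 inducible genes. Dnaja1 held it before 1 of its start sites and not before the others. Only 2 constitutive genes were in the table, too few to compare the classes. The windows of Dnajb1, Bag3, Hspa4 and Hspa4l held neither set of letters, and Hspa8 was not in the table. A match is a run of letters and not a site known to be bound in these spleens. The sequences are printed 5′ to 3′ on the strand of the gene, with the pair in capitals.
Hspa1a, chr17:34972157-34972406, minus strand: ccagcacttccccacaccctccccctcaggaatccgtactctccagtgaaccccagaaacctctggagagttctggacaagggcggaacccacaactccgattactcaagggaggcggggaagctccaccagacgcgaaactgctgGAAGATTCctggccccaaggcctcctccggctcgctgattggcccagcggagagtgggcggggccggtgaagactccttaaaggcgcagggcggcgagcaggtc
Hspa1b, chr17:34959239-34959488, minus strand: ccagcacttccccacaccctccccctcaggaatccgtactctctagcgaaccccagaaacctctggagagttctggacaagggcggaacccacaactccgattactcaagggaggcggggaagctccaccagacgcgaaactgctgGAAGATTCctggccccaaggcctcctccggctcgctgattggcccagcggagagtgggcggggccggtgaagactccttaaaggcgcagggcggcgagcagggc
Hsph1, chr5:149636342-149636389, minus strand: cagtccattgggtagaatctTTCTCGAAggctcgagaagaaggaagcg
Hspb1, chr5:135887782-135887849, plus strand: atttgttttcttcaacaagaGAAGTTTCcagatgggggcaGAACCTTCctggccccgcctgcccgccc
Dnaja1, chr4:40722324-40722371, plus strand: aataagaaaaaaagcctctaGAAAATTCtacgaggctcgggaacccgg
Hspa1a and Hspa1b are neighboring genes of chromosome 17, and their 250 bases are 98.8% identical. They differ by 3 substitutions, C44T, T47C and T249G, with the base of Hspa1a first and positions counted from 1 at the 5′ end. The shared GAAGATTC begins 104 bases before the start of both genes. The mRNAs of this pair were not compared here, so how well the array tells them apart is not known. Their signals are best read as those of inducible Hsp70 as a whole, though the counts below keep them as separate members.

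In the garlic-fed spleens, the mRNAs of inducible Hsp70 stood at 5.59 to 11.7 times the control mean by probe set, that of the Hsp110 protein Hsph1 at 4.17 and 4.88 times, and those of the J-domain proteins Dnajb1 and Dnaja1 at 1.8 to 2.2 times. Smaller differences in the same direction were measured for Hspa4l and Hspa8, and the groups overlapped for Bag3 and Hspb1. No member passed an adjusted p of 0.05 in limma, against 0.343% of all genes tested that were higher past it. At an unadjusted p under 0.05, 7 of the 10 members were higher in garlic-fed mice, against 6.89% of all genes, and 0 were lower, against 6.24%. All 3 garlic-fed mice lay above all 3 control mice in 6 of the 10 members, against 9.13% of all genes, and below them in 0, against 10.7%. The criterion of a fold above 1.8 with an unadjusted p under 0.05 was met by 5 members, Hspa1a, Hspa1b, Hsph1, Dnajb1 and Dnaja1, against 1.08% of all genes. Garlic-fed mouse 1 had lower signals than the other garlic-fed mice for these 5 genes. Without that mouse all 5 passed the adjusted threshold, with adjusted p between 0.00076 and 0.0241 (limma). Leaving out the lowest mouse of the higher group widens any difference, so these values are no further support. With any other single array left out, 0 members passed. Because the members were chosen with earlier results of these data known, their counts against all genes are not independent support. Hspa1a and Hspa1b also enter these counts as separate genes.

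**Figure D1:**
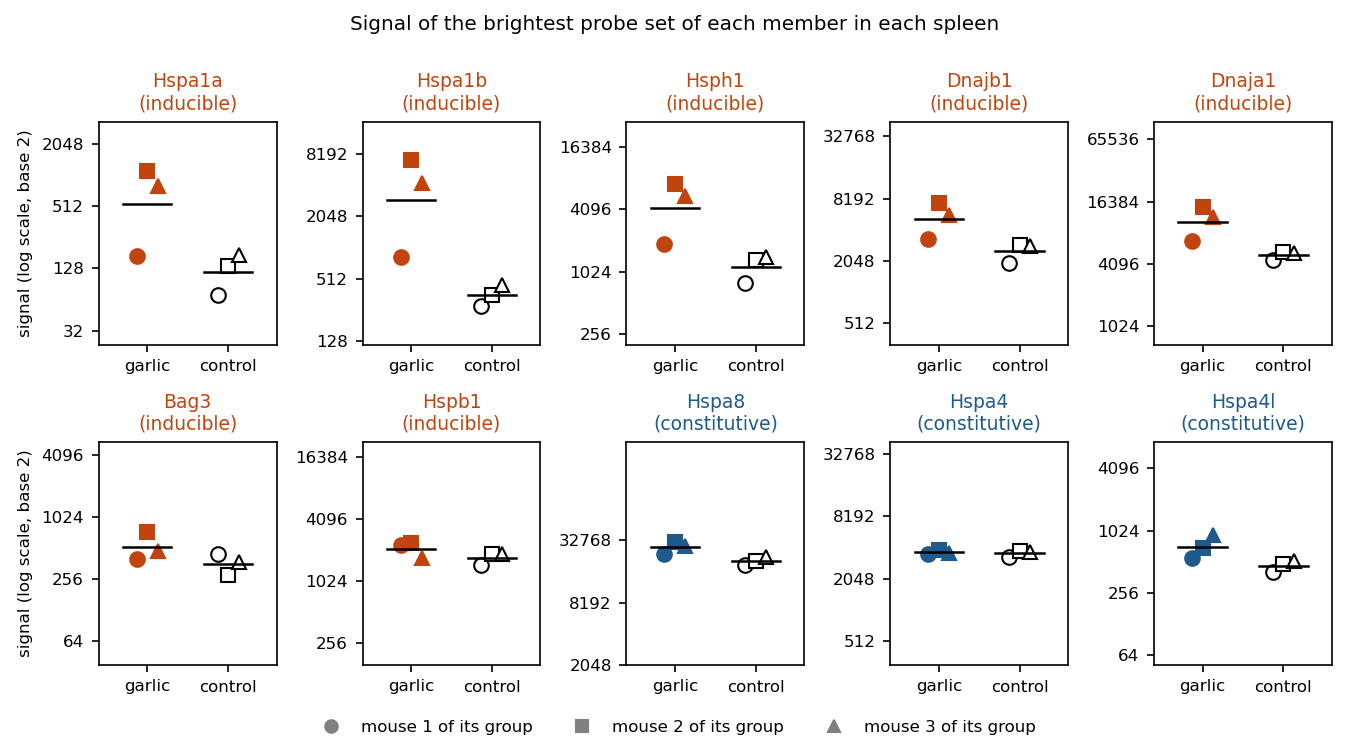
Signal of the brightest probe set of each member in each spleen, on a log scale of base 2, with garlic-fed mice as filled symbols at the left of each panel and control mice as open symbols at the right. Each symbol shape is 1 mouse of its group, the line is the geometric mean of 3 mice, and every panel spans the same range of fold. The 3 garlic-fed mice lie above all control mice for Hspa1b, Hsph1, Dnajb1, Dnaja1, Hspa8 and Hspa4l.

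Inducible Hsp70 showed the largest differences. The brightest Hspa1b probe set had signals of 820.3, 7163 and 4278 in garlic-fed mice 1, 2 and 3, against 275, 355 and 442 in control mice 1, 2 and 3. The lowest garlic-fed mouse exceeded the highest control mouse, and garlic-fed mouse 1 was far closer to the controls than the other garlic-fed mice were. The mean was 4087 ± 3175 (SD, n = 3) in garlic-fed mice and 357 ± 83.6 (SD, n = 3) in control mice, an 11.4-fold difference of means. On the log2 scale the difference was 3.06 (standard error 0.62, 95% interval 1.69 to 4.43, unadjusted p = 0.000553, adjusted p = 0.0911, limma). This log2 difference was rank 1 among the 12262 genes, each represented by its brightest probe set.

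The other Hspa1b probe sets gave similar differences. The second had 773, 5633 and 2429 in garlic-fed mice, against 183, 286 and 285 in control mice, with a log2 difference of 3.16 and the lowest adjusted p of all member probe sets, 0.0607. It carries the array's label for probes that can bind other transcripts. The remaining one had 397, 3790 and 1467 in garlic-fed mice, against 153, 183 and 189 in control mice, with a log2 difference of 2.90 (adjusted p = 0.0976, limma). In all of the 3 probe sets garlic-fed mouse 2 was highest and control mouse 1 was lowest.

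The single Hspa1a probe set read 168, 1120.1 and 813 in garlic-fed mice, against 70.2, 134 and 171 in control mice. Garlic-fed mouse 1 lay just below control mouse 3, so the groups overlapped by that mouse. The mean was 700.4 ± 486 (SD, n = 3) in garlic-fed mice and 125 ± 51.1 (SD, n = 3) in control mice. The log2 difference was 2.19 (standard error 0.61, 95% interval 0.84 to 3.54, unadjusted p = 0.00471, adjusted p = 0.202, limma), rank 2 among all genes. The unadjusted p from limma did not stay under 0.05 with dim probe sets kept in (0.0504) or with a robust prior variance (0.054).

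Hsph1 encodes the stress-inducible Hsp110 that exchanges the nucleotide of Hsp70. Its brightest probe set read 1913, 7229.9 and 5550.3 in garlic-fed mice, against 798, 1311 and 1417 in control mice. The groups did not overlap, with garlic-fed mouse 1 again the lowest of its group. The means were 4898 ± 2718 (SD, n = 3) in garlic-fed mice and 1175 ± 331 (SD, n = 3) in control mice. The log2 difference was 1.90 (standard error 0.41, 95% interval 0.98 to 2.82, unadjusted p = 0.000974, adjusted p = 0.112, limma), rank 4 among all genes. The second Hsph1 probe set had 882, 3976 and 3885 in garlic-fed mice, against 511, 658 and 623 in control mice, a log2 difference of 2.01 (adjusted p = 0.131, limma). The stretch of DNA printed above for this gene carries TTCTCGAA, the tail-to-tail order of the units.

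The J-domain proteins Dnajb1 and Dnaja1 serve as Hsp70 partners in the cytosol. The brightest Dnajb1 probe set read 3349.9, 7344 and 5732 in garlic-fed mice, against 1934, 2924 and 2813 in control mice. That of Dnaja1 read 6747, 14655 and 11526 in garlic-fed mice, against 4432, 5309 and 5239 in control mice. In both genes the groups did not overlap, and garlic-fed mouse 1 stood between the control mice and the other garlic-fed mice. The log2 difference was 1.05 for Dnajb1 (standard error 0.25, 95% interval 0.48 to 1.62, unadjusted p = 0.00204, adjusted p = 0.145, limma) and 1.07 for Dnaja1 (standard error 0.23, 95% interval 0.57 to 1.57, unadjusted p = 0.000786, adjusted p = 0.0988, limma). These were ranks 73 and 67 among all genes. The second Dnajb1 probe set gave a log2 difference of 0.97 and the other Dnaja1 probe sets gave 0.94 and 0.79, all without overlap of the groups. The Dnaja1 probe set at 0.79 carries the array's label for probes shared by several transcripts.

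Bag3 links Hsp70 to small heat shock proteins and to autophagy, and Hspb1 is the small heat shock protein also called Hsp25 in mice. Bag3 read 404, 728 and 478 in garlic-fed mice, against 449.9, 281 and 375 in control mice. Control mouse 1 lay above garlic-fed mouse 1, so the groups overlapped. Its log2 difference was 0.52 (standard error 0.24, 95% interval -0.01 to 1.05, unadjusted p = 0.052, adjusted p = 0.462, limma). The brighter Hspb1 probe set read 2296, 2435 and 1716 in garlic-fed mice, against 1489.7, 1874 and 1888 in control mice. Here garlic-fed mouse 3, and not mouse 1, was the lowest of its group and lay within the control range. The log2 difference of Hspb1 was 0.29 with either probe set (95% interval -0.04 to 0.62 for the brighter, unadjusted p = 0.0814, adjusted p = 0.523, limma). The dimmer one carries the array's label for probes that can bind other transcripts. The window of Hspb1 holds both GAAGTTTC and GAACCTTC, and that of Bag3 holds no such pair.

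**Figure D2:**
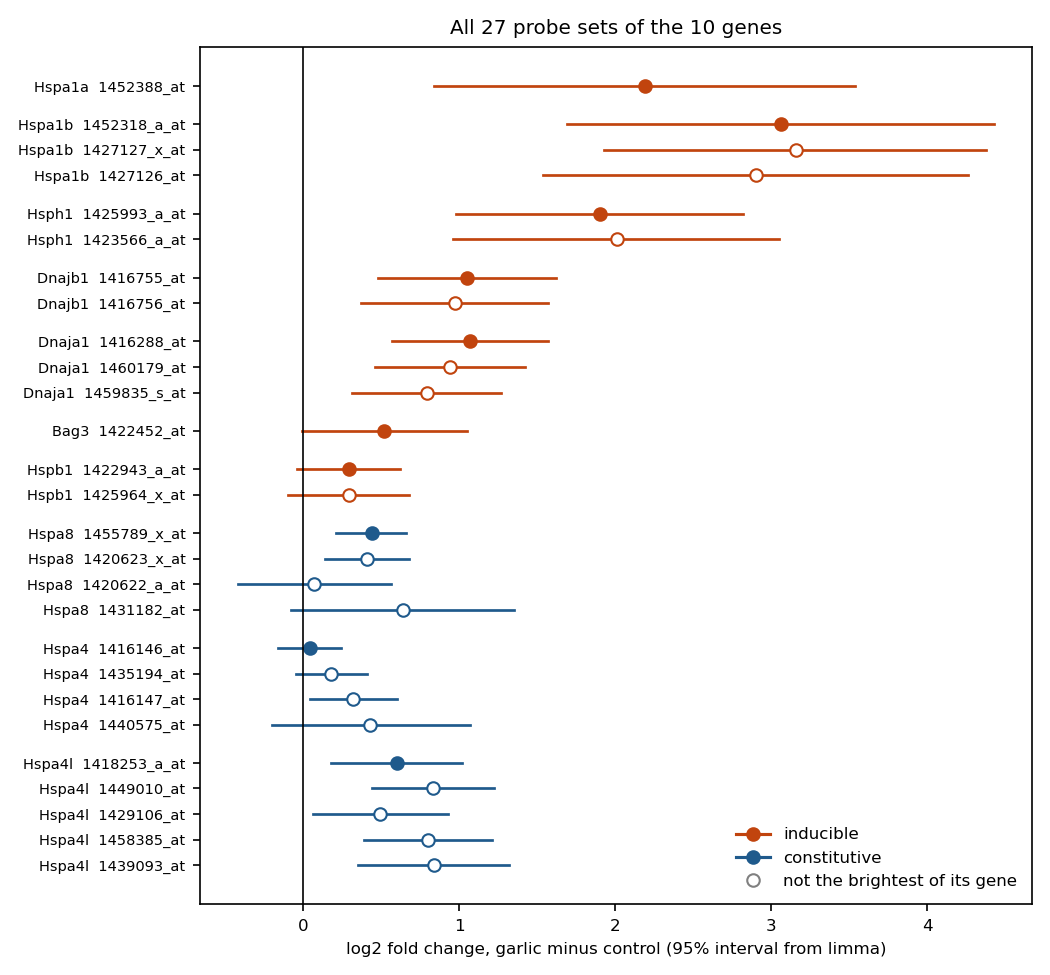
Log2 fold change, garlic minus control, of all 27 probe sets of the 10 genes, with the 95% interval from limma as a line. Filled points are the brightest probe set of each gene and open points the others. The intervals of Hspa1b lie between 1.54 and 4.43, those of Dnajb1, Dnaja1 and Hspa4l lie above 0, and those of Bag3 and Hspb1 reach below 0.

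Among the constitutive members, the log2 differences of the brightest probe sets were 0.60 for Hspa4l, 0.44 for Hspa8 and 0.04 for Hspa4, and the difference between the classes was not tested. Hspa8, the Hsp70 that cells make at all times, read 24265, 31507 and 28959.8 in garlic-fed mice on its brightest probe set, against 18984, 20955 and 22522 in control mice. The groups did not overlap, and the mean was 1.36 times that of control mice. The log2 difference was 0.44 (standard error 0.10, 95% interval 0.21 to 0.66, unadjusted p = 0.00156, adjusted p = 0.131, limma), rank 664 among all genes. The second Hspa8 probe set gave 0.41, with the groups apart as well.

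The other Hspa8 probe sets did not follow these. One read 7505, 8951 and 15440.1 in garlic-fed mice, against 11152, 8482 and 9452 in control mice, a log2 difference of 0.07 (95% interval -0.42 to 0.56). The dimmest read 1857, 2102 and 775 in garlic-fed mice, against 762, 1153 and 913 in control mice, a log2 difference of 0.64 (95% interval -0.08 to 1.35). Garlic-fed mouse 3 was the highest mouse on the one and among the lowest on the other. The Hspa8 mRNA thus gave 2 probe sets with groups apart and 2 with overlap. Both of those with groups apart carry the array's label for probes that can bind other transcripts, and the 2 with overlap do not. The difference of 0.44 may therefore not be that of Hspa8 alone.

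Hspa4l and Hspa4 encode the other cytosolic Hsp110 proteins. The brightest Hspa4l probe set read 554, 699 and 925 in garlic-fed mice, against 406, 484 and 520 in control mice. The groups did not overlap, and garlic-fed mouse 3 was the highest. The log2 difference was 0.60 (standard error 0.19, 95% interval 0.18 to 1.02, unadjusted p = 0.0096, adjusted p = 0.258, limma). All 5 Hspa4l probe sets were higher at an unadjusted p under 0.05 without overlap of the groups, with log2 differences of 0.49 to 0.84 and a lowest adjusted p of 0.0976. Hspa4 read 3554, 3883 and 3644 in garlic-fed mice on its brightest probe set, against 3289, 3768 and 3723 in control mice. The groups overlapped, with a log2 difference of 0.04 (standard error 0.09, 95% interval -0.16 to 0.24, unadjusted p = 0.652, adjusted p = 0.91, limma). Of the 4 Hspa4 probe sets, 2 of the dimmer ones had all garlic-fed mice above all control mice. Among the dimmer ones 1 was higher at an unadjusted p of 0.0298 (log2 difference 0.32, adjusted p = 0.391, limma). The probe sets of this gene thus disagree in size though not in sign.

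Across probe sets, 19 of the 27 were higher at an unadjusted p under 0.05, against 5.58% of all probe sets tested, and 0 were lower, against 5.44%. All 3 garlic-fed mice lay above all 3 control mice in 19 of the 27, against 7.52%. Of the 14 inducible probe sets 11 were higher at that p, and of the 13 constitutive ones 8 were. Hspa4l gave 5 of these 8, so the constitutive count depends on where that gene is placed. The median log2 difference was 1.06 over the inducible and 0.44 over the constitutive probe sets. By gene, the medians were 1.07 over the 7 inducible genes (range 0.29 to 3.06) and 0.44 over the 3 constitutive genes (range 0.04 to 0.60), against -0.03 over all genes tested. Probe sets of 1 gene share their mRNA and are not independent of each other.

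Garlic-fed mouse 1 was the lowest of its group in 22 of the 27 member probe sets, against 26.7% of all probe sets tested. Garlic-fed mouse 2 was the highest of its group in 18 of the 27, against 27.5%, and garlic-fed mouse 3 in 8, against 35.9%. Among the controls, mouse 1 was the lowest of all 6 mice in 21 of the 27, against 17.2% of all probe sets, while the highest control was mouse 3 in 13, mouse 2 in 10 and mouse 1 in 4. The median log2 signal of the 7 inducible genes over the control mean was 0.44, 1.56 and 1.21 in garlic-fed mice 1, 2 and 3, against -0.35, 0.11 and 0.16 in control mice 1, 2 and 3. For the 3 constitutive genes it was 0.22, 0.58 and 0.48 in the garlic-fed mice, against -0.13, 0.05 and 0.12 in the control mice. Garlic-fed mouse 1 therefore lay above the controls in both classes, but by less than its group mates. Counting each mouse on its own, garlic-fed mouse 1 exceeded all control mice in 23 of the 27 probe sets, against 27.8% of all probe sets, mouse 2 in 25, against 25.6%, and mouse 3 in 22, against 26.3%.

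The spread among garlic-fed mice was wide for the genes with the largest differences. The SD of the log2 signal of Hspa1b was 1.63 among garlic-fed mice and 0.34 among control mice (n = 3 each), and only 0.277% of all genes had a larger SD among garlic-fed mice. That of Hspa1a was 1.47 in garlic-fed and 0.66 in control mice, and that of Hsph1 was 1.02 in garlic-fed and 0.45 in control mice. Dnajb1 had 0.58 among garlic-fed and 0.33 among control mice, and Dnaja1 0.57 among garlic-fed and 0.15 among control mice. On its brightest probe set, Hspa8 had 0.19 among garlic-fed and 0.12 among control mice, and Hspa4 had 0.07 among garlic-fed and 0.11 among control mice. Among garlic-fed mice, the dimmer probe sets had 0.28, 0.54 and 0.78 for Hspa8, and 0.10, 0.07 and 0.62 for Hspa4. A small spread of these genes is therefore not seen on all their probe sets. The median over all genes was 0.17 among garlic-fed and 0.14 among control mice. The spread was not tested between groups.

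**Figure D3:**
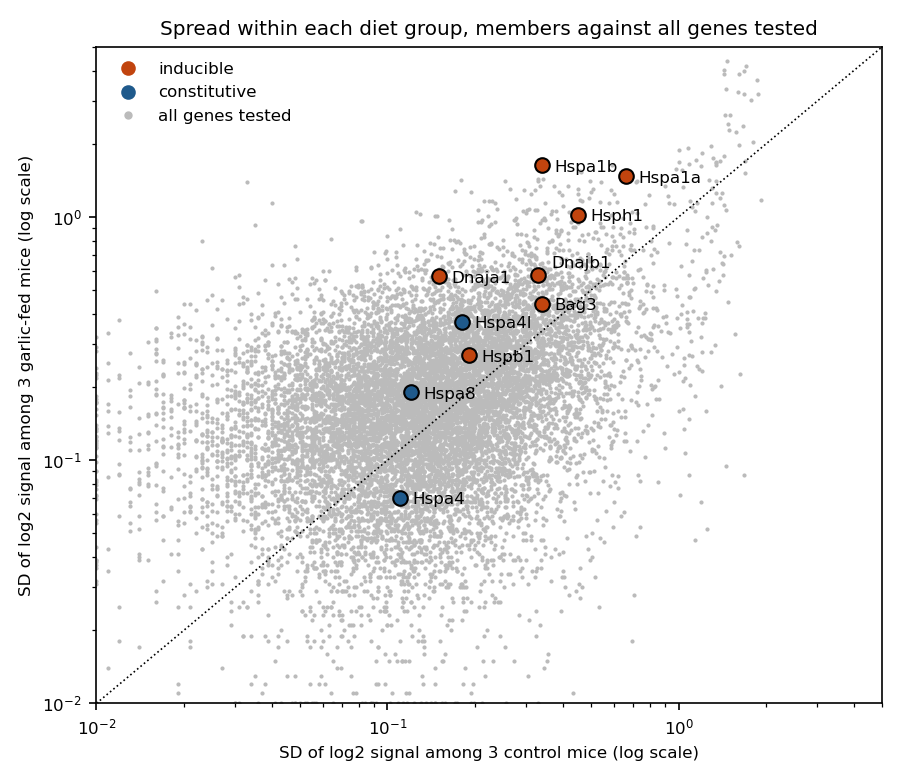
SD of the log2 signal among the 3 garlic-fed mice (vertical, log scale) against that among the 3 control mice (horizontal, log scale) for the brightest probe set of every gene tested, with members colored by class. The dotted line marks equal spread. Hspa1b, Hspa1a and Hsph1 lie at garlic SDs of 1.63, 1.47 and 1.02, and Hspa4, at 0.07, is the only member below the line.

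Spleen is a mixed tissue, and in whole-tissue RNA more cells of a type and more mRNA per cell cannot be told apart. All probed markers of B cells, T cells and red pulp macrophages were above the floor on all 6 arrays. The 5 T cell markers summed to 5943, 6541 and 6499 in garlic-fed mice, against 7004, 7126 and 7392 in control mice, without overlap. The 6 red pulp macrophage markers summed to 53941, 44340.2 and 48750.3 in garlic-fed mice, against 40566, 43822 and 41420 in control mice, also without overlap. Their median log2 signal over the control mean did overlap, at 0.48, 0.04 and 0.25 in garlic-fed mice, against -0.03, 0.10 and -0.05 in control mice. Among all genes tested, 9.13% had every garlic-fed mouse above every control mouse, and 10.7% had every garlic-fed mouse below. The 4 probed B cell markers, of 5 listed, summed to 37086, 33670.4 and 33504 in garlic-fed mice, against 40114, 35457 and 39322 in control mice, where the groups overlapped. The summed signal of 5 markers of erythroid precursors, of 6 listed and all above the floor, was 23113, 22846 and 35209 in garlic-fed mice, against 16638, 16277 and 21014 in control mice, again without overlap. The erythroid sum was highest in garlic-fed mouse 3, as was the brightest probe set of Hspa4l. Those of all other members were highest in garlic-fed mouse 2. The summed signal of 7 pancreatic markers, of 8 listed, was 2054, 25713 and 2178 in garlic-fed mice, against 94836, 12889 and 44901 in control mice, and Cpa1, Cpb1 and Ctrb1 were at or under the floor on 1 array or more. Within the garlic-fed group pancreatic signal was highest in mouse 2, which was also highest for inducible Hsp70, and within the control group it was highest in mouse 1, which was lowest for inducible Hsp70. With both of these arrays left out, the log2 differences were 2.24 for Hspa1b, 1.28 for Hspa1a, 1.26 for Hsph1, 0.61 for Dnajb1 and 0.74 for Dnaja1. For these genes the arrays left out were those of the highest garlic-fed and the lowest control mouse. Leaving them out narrows any difference, so these values do not test the part of pancreatic tissue. Of the members, 5 stayed under an unadjusted p of 0.05 (limma), with Hspa1a (0.0625) and Hspa4l (0.0651) no longer among them. The 4 probed fat markers, of 6 listed, summed to 19725, 20451 and 8952 in garlic-fed mice, against 10718, 11123 and 11152 in control mice. The 5 neutrophil markers summed to 16558, 19079 and 22851 in garlic-fed mice, against 15812, 17911 and 14078 in control mice. The part of these cell types in the chaperone differences was not tested.

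Beyond the members, 73 genes of protein folding were listed, also with earlier results of these data known, and 60 of them were tested. These were other Hsp70s, J-domain proteins, nucleotide exchange factors, linkers to Hsp90, small heat shock proteins, heat shock factors, and Hsp90 with its cochaperones and the chaperonins. None passed the adjusted threshold in limma. With no adjustment, 14 of the 60 passed a p of 0.05 upward, against 6.89% of all genes, and 1 passed it downward, against 6.24%. Over the list the median log2 difference was 0.07, against -0.03 over all genes tested, and 42 of the 60 were above 0. In 12 of them all garlic-fed mice exceeded all control mice, against 9.13% of all genes, and in 2 all garlic-fed mice were below all control mice, against 10.7%.

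The other J-domain genes had a median of 0.02 over 21 genes, with 3 of them higher and 1 of them lower at that unadjusted threshold, where all genes gave 6.89% higher and 6.24% lower. Dnaja4, a relative of Dnaja1, read 592, 839.7 and 1168 in garlic-fed mice, against 344, 433 and 484 in control mice. Its log2 difference was 1.00 (standard error 0.23, adjusted p = 0.128, limma). Dnajb4, a relative of Dnajb1, read 1776, 2577 and 2725 in garlic-fed mice, against 951, 1435 and 1288 in control mice. Its log2 difference was 0.94 (standard error 0.19, adjusted p = 0.0882, limma). Dnajb2, which helps pass clients to the proteasome, read 1171, 1355 and 1636 in garlic-fed mice, against 709.7, 739.7 and 903 in control mice, a log2 difference of 0.82 (standard error 0.15, adjusted p = 0.0673, limma). In all of these genes garlic-fed mouse 3 was the highest, and the groups did not overlap. The 1 lower gene was Dnajc10, a J-domain protein of the endoplasmic reticulum, with a log2 difference of -0.26 (unadjusted p = 0.0334, adjusted p = 0.406).

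Among the partners shared with Hsp90, Stip1, the protein that bridges Hsp70 and Hsp90, read 1220.1, 2678 and 2207 in garlic-fed mice, against 1015, 1199 and 1025 in control mice, a log2 difference of 0.84 (adjusted p = 0.208, limma). Ahsa2, a relative of an activator of the Hsp90 ATPase, read 687, 1789.8 and 1408 in garlic-fed mice, against 469, 586 and 472 in control mice, a log2 difference of 1.25 (standard error 0.29, adjusted p = 0.131, limma). In both, garlic-fed mouse 2 was the highest and mouse 1 the lowest of the group, as for Hspa1b and Hsph1. Chordc1, Fkbp4 and Cacybp, all partners of Hsp90, had log2 differences of 0.90, 0.65 and 0.62 (adjusted p = 0.17, 0.174 and 0.186), without overlap of the groups. The group of Hsp90, chaperonins and other heat-induced genes had a median of 0.35 over 13 genes, with 8 higher at an unadjusted p under 0.05, against 6.89% of all genes.

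The remaining groups gave few such genes. The other Hsp70s had a median log2 difference of -0.06 over 7 genes, and 1, Hspa5 of the endoplasmic reticulum, was higher at an unadjusted p under 0.05 (0.29, adjusted p = 0.399). Of 7 other nucleotide exchange and BAG factors 1, Bag2, was higher (0.79, adjusted p = 0.406). Of 5 other small heat shock proteins, median -0.18, and of 3 heat shock factors and their regulators, median -0.05, 0 were higher or lower at that p. Hsf1 was not among the probe sets tested.

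**Figure D4:**
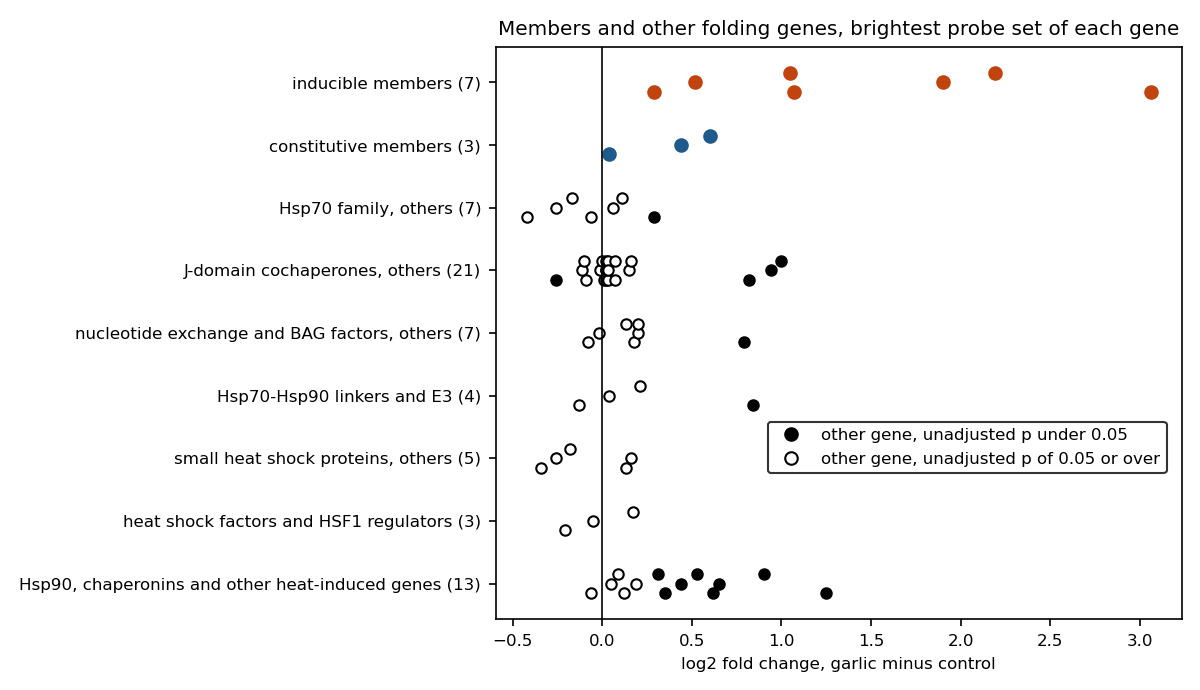
Log2 fold change, garlic minus control, of the brightest probe set of each member (colored, upper rows) and of the 60 other folding genes tested, by group. Filled black points have an unadjusted p under 0.05 in limma and open points do not. The inducible members spread from 0.29 to 3.06, whereas no other folding gene lies above 1.25.

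Likeness to the brightest Hspa1b probe set was measured over the 6 arrays as the root mean square difference of log2 signals, each gene centered on its control mean, so that 0 would be an identical profile. The nearest of the 12261 other genes were Hspa1a, at 0.66, and Hsph1, at 0.90, while the median of all genes was 2.40. Dnaja1 and Dnajb1 were at ranks 24 and 27, with 1.54 and 1.55. The other members lay farther away, Hspa4l at 1.92, Bag3 at 1.97, Hspa8 at 2.04, Hspb1 at 2.19 and Hspa4 at 2.33. The nearest genes outside the group were Ccn1 (1.19), Dusp8 (1.39), Ahsa2 (1.41), Tac2 (1.42) and Cpox (1.42). Ccn1, which encodes a secreted matrix protein, read 819, 3159 and 463 in garlic-fed mice, against 234, 290.1 and 234 in control mice, so that garlic-fed mouse 2 was again the highest but mouse 3 the lowest of its group. This measure weights the size of a difference as well as its order among mice, so genes with large differences come nearer to Hspa1b. Hspa1a may also be nearest because the array may not tell it from Hspa1b, which was not tested.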

How the data were processed

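Spleen RNA of 3 garlic-fed and 3 control mice was measured on 1 Affymetrix array each. The authors deposited 1 linear intensity for each probe set and array, a MAS5 signal by the submitters' processing notes. The trimmed mean of every array, leaving out 2% at each end, was 500. This scaling was read from the values, and the version of MAS5 is not given in the sources used here. Precision is limited by the small number of arrays.

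Of 45037 probe sets left after 64 array controls, 34945 had 1 gene name in the array annotation, 932 had several and were not named, and 9160 had none. Signals below the 20th percentile, 23.5, were raised to it before the log2 step. Probe sets whose mean log2 did not exceed 6.08, the 40th percentile, were dropped, which left 27022. Diets were contrasted as garlic minus control by limma 3.58.1 under R 4.3.3 (lmFit, eBayes with a trend), with Benjamini-Hochberg adjustment over all of them. A gene was represented by its brightest probe set. Figures were drawn with matplotlib 3.10.9.

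All members are named with their probe sets. Of the other folding genes, those past the adjusted threshold and up to 8 with the largest change among genes whose groups do not overlap at an unadjusted p under 0.05 are named, and the 5 genes nearest to Hspa1b in profile. Hspa5, Bag2, Dnajc10 and Hsf1 were named after their values were seen. The members and lists were chosen with earlier results of these data known. Alternatives were quantile normalization, median centering, other floors and filters, other variance models, the methods' one-way ANOVA, the replicate number as a block, arrays left out and all probe sets of a gene averaged. The study's qPCR and immunoblots were not analysed here.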

Additional observations from a re-analysis of the deposited data

How the results depend on the processing

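The members kept their direction in 178 of 180 values, over 18 alternatives and 10 genes. The exceptions were Hspa4, at -0.02 without control mouse 1 and -0.06 without the arrays with the most pancreatic signal, against 0.04. Members higher past the adjusted threshold numbered 0 with all arrays and 0 to 5 with each array left out, the 5 without garlic-fed mouse 1. Leaving out each array in turn gave log2 differences of 1.65 to 3.02 for Hspa1a, 2.42 to 3.98 for Hspa1b, 1.51 to 2.47 for Hsph1, 0.80 to 1.37 for Dnajb1, 0.83 to 1.38 for Dnaja1 and -0.02 to 0.08 for Hspa4. Members higher at an unadjusted p under 0.05 numbered 7, and 4 in the methods' ANOVA (Hspa1b, Hspa8, Hsph1 and Dnaja1), which gave 0 past the adjusted threshold. The labels share replicate numbers without saying that they pair mice, and the deviations of same-numbered mice correlated at 0.000642, -0.176 and 0.0781. With the replicate number as a block, 6 members passed the adjusted threshold, with Hspa1a at 2.19 (adjusted p = 0.00936), Hspa1b at 3.06 (0.00705), Hsph1 at 1.90 (0.00235), Dnajb1 at 1.05 (0.0032), Dnaja1 at 1.07 (0.00849) and Hspa8 at 0.44 (0.0443). The low correlations give little ground for this block. The count of members at an unadjusted p under 0.05 was 8 with quantile normalization and 9 with median centering. Median centering gave smaller unadjusted p for Hspa1b (0.000357) and Hsph1 (0.000667) in limma. A robust prior lowered the unadjusted p of Hspa8 from 0.00156 to 0.001 (limma). For Hspa1b and Hsph1, 3 other fits were weaker than the main one. For Hspa1b, the unadjusted p of 0.000553 became 0.029 with a robust prior, 0.0181 with dim probe sets kept in (limma) and 0.0336 in ANOVA. For Hsph1, 0.000974 became 0.0337, 0.0234 and 0.0415 in the same order.

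Over all genes, 64 probe sets passed the adjusted threshold, against 151 with median centering, 11 without the filter, 0 without a trend of variance, 126 with a robust prior, 0 in ANOVA, 295 with the block, 114 without garlic-fed mouse 1, and 28 with the most pancreatic arrays dropped. Dropping control mouse 1 gave 0, dropping control mouse 2 gave 0 and dropping control mouse 3 gave 33. With all probe sets of a gene averaged, 29 genes passed, a count of genes and not of probe sets. The cause was not tested.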
